A study of Mus musculus with 4 samples.

Results

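Alternative 3′ and 5′ splice sites are competing ends of the same exon. In an Alt3 event several acceptors, where an intron ends, compete for 1 upstream donor, and in an Alt5 event several donors, where an intron begins, compete for 1 downstream acceptor. The deposited table of alternative splicing (AS) events in mouse endothelial cells (ECs) held 1075 rows. Of these, 215 were classed as Alt3 or Alt5, 119 acceptors and 96 donors in 207 genes, and all 215 are described here. A row is a single listed site, named by its rank and the number of competing sites, so that 1/2 is the site that gives the shortest exon of a pair and 2/2 the site that gives the longest. The length column of the table gives the nucleotides (nt) a site adds to the shortest exon. Relative to the splice site across the intron, the site of the longest exon is the proximal one and the site of the shortest exon is the distal one.

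All 4 libraries came from moEC, a mouse EC line, transduced with a lentivirus and kept under puromycin. The 2 control libraries carried the empty HA vector. The 2 NOVA2 overexpression (OE) libraries stably carried pLenti-GIII-CMV with human NOVA2 and an HA tag, so the protein was the human one under a viral promoter in a selected line. Nothing states that the libraries of a group came from separate cultures, so p-values speak only for these libraries. The Fisher's exact p-values below cover counting error and leave out the spread between libraries. The table holds no expression levels, so neither the EC identity nor the level of NOVA2 could be checked in it.

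NOVA2 is an RNA-binding protein with KH domains that binds clusters of YCAY (Y is C or U) in pre-mRNA. Where it binds decides whether a nearby exon or splice site is used more or less, and in ECs it is known for genes of adhesion, the cytoskeleton and cell polarity. A switch between splice sites a few nt apart changes an exon by a few bases. It keeps the reading frame when that number is a multiple of 3, and a switch over a longer distance adds or removes a segment of protein or untranslated sequence.

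The pairs below are shown because their sites were among the most deeply read or the most changed, or because they hold an unusual site. Coordinates are mm9, all lie at exons of coding genes, and each sequence runs 5′ to 3′ from 30 bases before the first splice point to 20 bases after the last. Capitals mark the last 2 intron bases of each competing acceptor.
Cnot10 acceptors 3 nt apart, chr9:114519821-114519873, minus strand: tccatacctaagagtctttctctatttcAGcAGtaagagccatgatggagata
Otud5 acceptors 3 nt apart, chrX:7451326-7451378, plus strand: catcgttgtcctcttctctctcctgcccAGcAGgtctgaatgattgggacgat
Tle3 acceptors 3 nt apart, chr9:61249630-61249682, plus strand: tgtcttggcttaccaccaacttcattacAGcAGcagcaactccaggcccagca
Pxk acceptors 3 nt apart, chr14:8987767-8987819, plus strand: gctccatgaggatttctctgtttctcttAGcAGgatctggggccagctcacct
Npm1 acceptors 6 nt apart, chr11:33060415-33060470, minus strand: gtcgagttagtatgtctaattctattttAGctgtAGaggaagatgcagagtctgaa
Slc29a2 acceptors 40 nt apart, chr19:5029182-5029271, plus strand: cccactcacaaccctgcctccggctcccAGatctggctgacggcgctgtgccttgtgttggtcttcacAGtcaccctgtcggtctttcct
Neo1 acceptors 48 nt apart, chr9:58754834-58754931, minus strand: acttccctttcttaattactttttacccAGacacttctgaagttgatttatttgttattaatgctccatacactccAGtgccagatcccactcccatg
Sorbs2 acceptors 3 nt apart, chr8:46886286-46886338, plus strand: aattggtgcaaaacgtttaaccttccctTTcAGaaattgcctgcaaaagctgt

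In the donor pairs, capitals mark the first 2 bases after each splice point.
Atp2b1 donors 4 nt apart, chr10:98453803-98453856, plus strand: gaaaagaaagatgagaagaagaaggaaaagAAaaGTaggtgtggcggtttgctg
Tmem44 donors 4 nt apart, chr16:30537520-30537573, minus strand: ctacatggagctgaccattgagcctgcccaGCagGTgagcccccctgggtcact
Atp6v1e1 first 2 of 3 donors, 4 nt apart, chr6:120772586-120772639, minus strand: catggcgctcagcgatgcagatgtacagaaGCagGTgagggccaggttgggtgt
Sema6d donors 12 nt apart, chr2:124488066-124488127, plus strand: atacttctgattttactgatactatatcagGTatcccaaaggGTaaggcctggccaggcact
Mocs1 donors 15 nt apart, chr17:49592138-49592202, plus strand: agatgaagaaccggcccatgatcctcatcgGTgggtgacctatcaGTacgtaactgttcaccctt
Itpr1 donors 27 nt apart, chr6:108338303-108338379, plus strand: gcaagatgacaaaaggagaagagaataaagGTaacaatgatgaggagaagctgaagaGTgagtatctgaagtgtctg
Ubap2l donors 33 nt apart, chr3:89842717-89842799, minus strand: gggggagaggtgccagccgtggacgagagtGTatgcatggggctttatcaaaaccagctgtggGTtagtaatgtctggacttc
Ociad1 first 2 of 3 donors, 45 nt apart, chr5:73697963-73698057, plus strand: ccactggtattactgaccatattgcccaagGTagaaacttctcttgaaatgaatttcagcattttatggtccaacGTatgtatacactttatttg

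Site use was given as the percent spliced in (PSI), here the percentage of the reads over the competing sites of an event that used the listed site. The authors listed events whose PSI differed by more than 5 percentage points between every control and every NOVA2 OE library. Among the 215 sites the closest control and NOVA2 OE libraries lay 5.02 points apart. All 215 sites were listed with the higher PSI in the NOVA2 OE libraries, whereas 205 of 549 cassette exons and 245 of 311 retained introns were. The PSI of competing sites sum to 100, so a gain at a listed site is a loss at its competitors, and the direction of the list says nothing on its own. The separation of the groups was fixed by this listing and is given as a description.

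The difference between the group means, dPSI, had a median of 10.9 points for Alt3 (5.13 to 30.03) and 11.4 for Alt5 (5.32 to 26.4). A dPSI of at least 10 points was reached by 66 of 119 acceptors and 59 of 96 donors, which is 125 of the 215 sites (58.1%). Of all 1075 events, 53.1% changed by at least 10 points in either direction and 33% gained as much, and the second share is low because other classes were listed in both directions. The median PSI of the acceptors was 31.6 and 34.5 in the control libraries and 44.4 and 48.0 in the NOVA2 OE libraries. For the donors it was 31.2 and 31.5 in the controls and 44.3 and 43.6 with NOVA2 OE. The median SD between the 2 libraries of a group was 1.84 (control) and 1.81 points (NOVA2 OE) for Alt3, and 1.65 and 1.76 for Alt5. The acceptor and donor values lay close to each other on each of these measures.

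**Figure D1:**
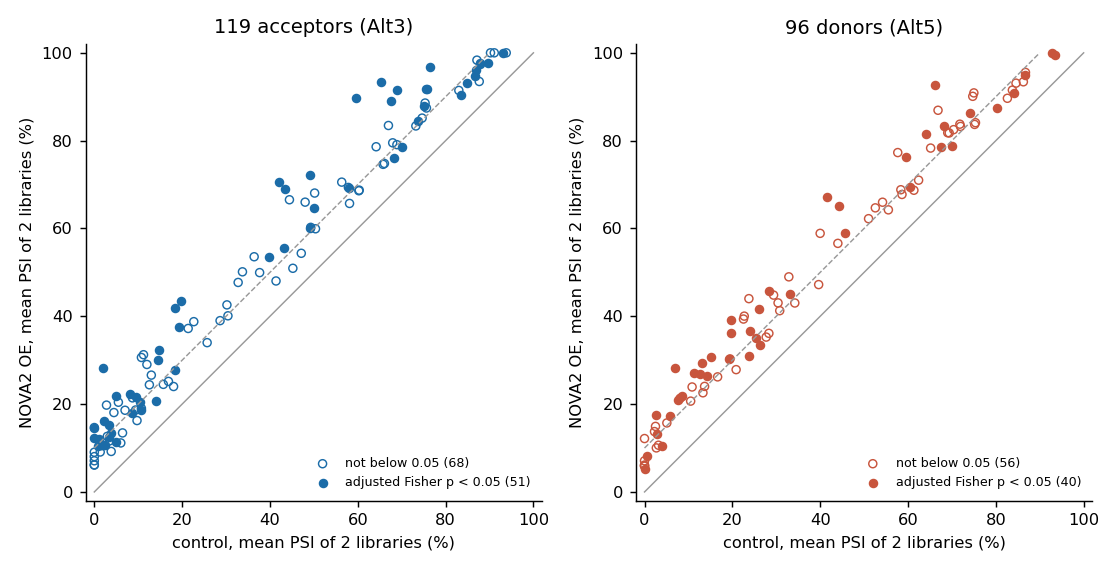
Mean PSI (%) of each listed site in the 2 control libraries (x axis) and the 2 NOVA2 OE libraries (y axis), for 119 acceptors and 96 donors. The solid line marks equal use and the dashed line a gain of 10 points. Filled points are the 51 acceptors and 40 donors with an adjusted Fisher's exact p under 0.05, and points lie above the solid line because the table listed only gains for these classes.

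Most listed sites were the less used ones in control ECs. The control mean was under 50% for 76 of 119 acceptors and 58 of 96 donors, and for 35 acceptors and 20 donors it was under 10%. In 7 acceptors and 3 donors the listed site lay under 50% in both control libraries and over 50% in both NOVA2 OE libraries. Ncor1, a nuclear receptor corepressor, was the most deeply read of the 7 acceptors, with 48.5% and 49.7% in control and 62.9% and 57.2% with NOVA2 OE. At 8 acceptors and 6 donors the listed site had no read in either control library. A count of 0 there allowed a PSI of up to between 1.67% and 18.8%, taken as 3 reads of the library's total over the event. The NOVA2 OE libraries held 1 to 6 raw reads at these 14 sites.

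Depth set much of what could be called. Over the 215 events the libraries held 13895 and 17089 (control) and 22301 and 21107 (NOVA2 OE) reads, with a median of 38 and 46 reads per event in control and 60 and 54 with NOVA2 OE. Two-sided Fisher's exact tests on the reads summed over each group, adjusted by the Benjamini-Hochberg method over all 1075 events, called 51 of 119 acceptors and 40 of 96 donors. These are 91 of 215 sites (42.3%), where 55.9% of all 1075 events passed in either direction and 30.7% with a higher PSI. This count ranks the sites by their reads and is no evidence for the direction, since the listing used the same contrast. The test takes reads as independent and leaves out the spread between libraries, and a permutation of 2 against 2 libraries cannot give a p below 0.333. Without control replicate 1, control replicate 2, NOVA2 OE replicate 1 or NOVA2 OE replicate 2 the acceptors called were 21, 18, 20 and 25, and the donors called were 20, 15, 20 and 26.

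Shallow sites were common, and they were the ones with the widest changes. The library with the fewest reads was scored VLOW, the lowest accepted coverage score, for 44 acceptors and 24 donors. Of these, 12 acceptors and 2 donors were called. The median dPSI over all 44 acceptors and all 24 donors was 14.5 and 13.1 points. Among the sites scored SOK, the highest score, in all 4 libraries, 12 of 16 acceptors and 13 of 18 donors were called, with a median dPSI of 8.17 and 8.64 points. The fewest reads in a library were 15, at 10 sites that include Mterfd3, Mapk8ip1, Syde2, Nol3 and 3830406C13Rik.

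**Figure D2:**
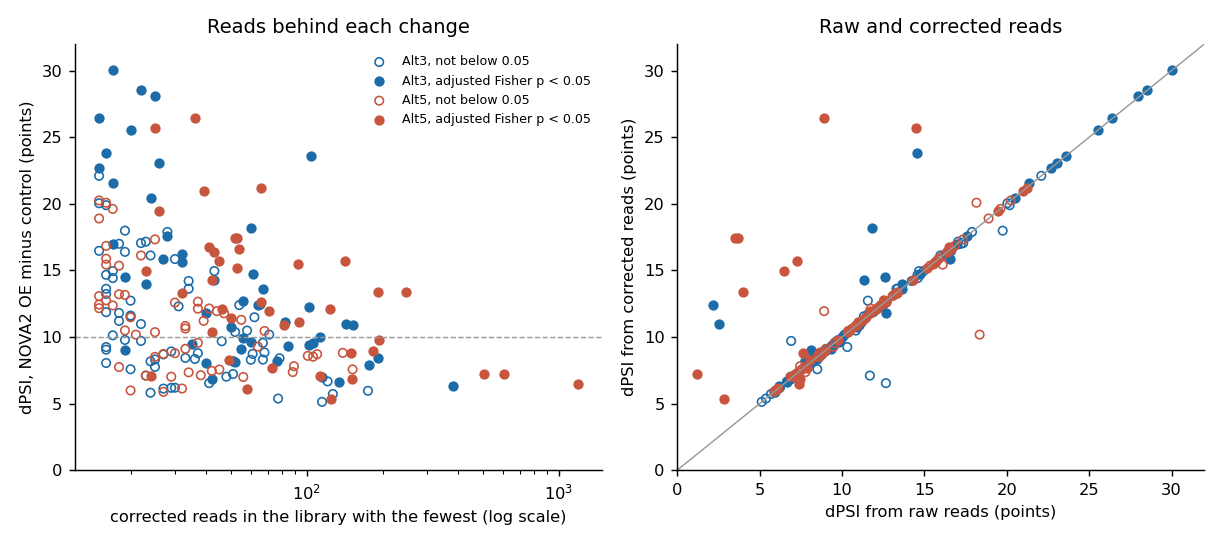
Left, dPSI (points) of each site against the corrected reads of its event in the library with the fewest (log axis), with a dashed line at 10 points. Right, dPSI from corrected reads against dPSI from raw reads, with a line of equality. Filled points passed the adjusted Fisher's exact test, and the sites far above the line at the right include 4 nt donor pairs with a raw dPSI under 5 points.

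The PSI rests on reads corrected for how mappable each junction is, and this correction decided some of the calls. Raw and corrected PSI differed by no more than 0.5 points in every library at 83 acceptors and 64 donors. They differed by over 5 points in at least 1 library at 8 acceptors and 13 donors. With raw reads every one of the 215 sites still had the higher mean PSI with NOVA2 OE, and 49 acceptors and 35 donors were called, of which 47 and 34 were also called with corrected reads. Donor pairs 4 nt apart were among these. At Atp2b1, a plasma membrane calcium pump, the distal competitor is followed by AA instead of GT. The raw PSI of its longer exon was 89.9 and 89.4% in control and 94.6 and 92.6% with NOVA2 OE, and the corrected PSI was 46.2 and 45.0% against 63.1 and 54.9%. Its dPSI was 13.4 points from corrected and 3.98 from raw reads, and both passed the test (adjusted Fisher's exact p = 2.43e-05 and 0.0285).

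Tmem44 and Epc1 also have donors 4 nt apart, each a GC before a GT. The listed GC donor of Epc1, a NuA4 acetyltransferase subunit, had 2 and 2 raw reads of 53 and 66 in control and 7 and 4 of 80 and 73 with NOVA2 OE. Correction raised these to 16.3, 17.3, 41.7 and 28.9 reads, and the dPSI was 17.4 points from corrected and 3.71 from raw reads. Tmem44 moved likewise, from 17.4 to 3.50 points. The GC donor of Atp6v1e1, a subunit of the vacuolar proton pump, went from 7.19 to 1.17 points. None of these 3 passed the test on raw reads (adjusted Fisher's exact p = 0.254 for Tmem44, 0.212 for Epc1 and 0.151 for Atp6v1e1).

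At the 3 nt pair of Sorbs2, an adaptor at adhesions and actin fibres, the listed acceptor follows TT and not AG. It had 0 raw reads in either control library, and 1 and 4 with NOVA2 OE. Corrected to 6.04 and 22.5 reads, it reached an adjusted Fisher's exact p of 2.2e-06, and on raw reads the value was 0.11. The other 118 listed acceptors followed AG. Of the 96 listed donors 93 preceded GT and 3 preceded GC.

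The 10 acceptors and 10 donors with the widest change among called sites scored LOW or better in all libraries did not overlap between groups, as the listing required. The shorter exon was the one used more at 8 of the 10 acceptors, which were picked by dPSI. Among all 51 called acceptors the shortest exon was the listed form in 24. Mrpl27, a protein of the large mitochondrial ribosomal subunit, led the acceptors. Its distal acceptor, 79 nt inside the exon, was used in 63.9 and 66.5% of reads in control and 92.3 and 94.3% with NOVA2 OE (dPSI 28.1, adjusted Fisher's exact p = 0.00112, fewest reads 25). In the 5′ UTR of Zmym2, a zinc finger protein of corepressor complexes, the acceptors lay 1 nt apart. The listed distal acceptor followed AG, so the proximal one, 1 nt before it, cannot follow AG. The shorter exon rose from 51.7 and 46.4% to 69.2 and 75%.

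The distal acceptor of Slc29a2, a nucleoside transporter, was used in 21.4 and 8.11% of control reads and 27.7 and 37.0% of NOVA2 OE reads. That of Tsc1, the hamartin subunit that restrains mTORC1, was used in 9.38 and 19.6% against 31.7 and 28.6%. At Rasal2, a RasGAP, the shorter exon went from 73.0 and 78.1% to 97.8 and 85.7%. At Rpl6 it went from 7.69 and 8.40% to 25.4 and 19.2%. The exceptions were Il3ra, the interleukin 3 receptor alpha chain, and Sirt3, a mitochondrial deacetylase, where the longer exon gained 15.9 and 14.7 points.

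Pbrm1, a subunit of the PBAF chromatin remodeller, and Vrk2, a kinase, led the donors with 26.4 and 25.7 points, and both lay in 5′ UTRs. Their control libraries stood far apart, at 77.6 and 54.7% for Pbrm1 and 29.8 and 53.1% for Vrk2, and neither passed on raw reads (raw dPSI 8.91 and 14.5, adjusted Fisher's exact p = 0.189 and 0.0619). Itpr1, an inositol trisphosphate receptor of the endoplasmic reticulum, gained the 27 nt between its donors. The longer exon was used in 51.3 and 37.3% of reads in control and 65.1 and 65.4% with NOVA2 OE. The shorter exons of Mtrf1l, Baz2b, 4732418C07Rik and Osgin2 gained 16.4 to 19.5 points.

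**Figure D3:**
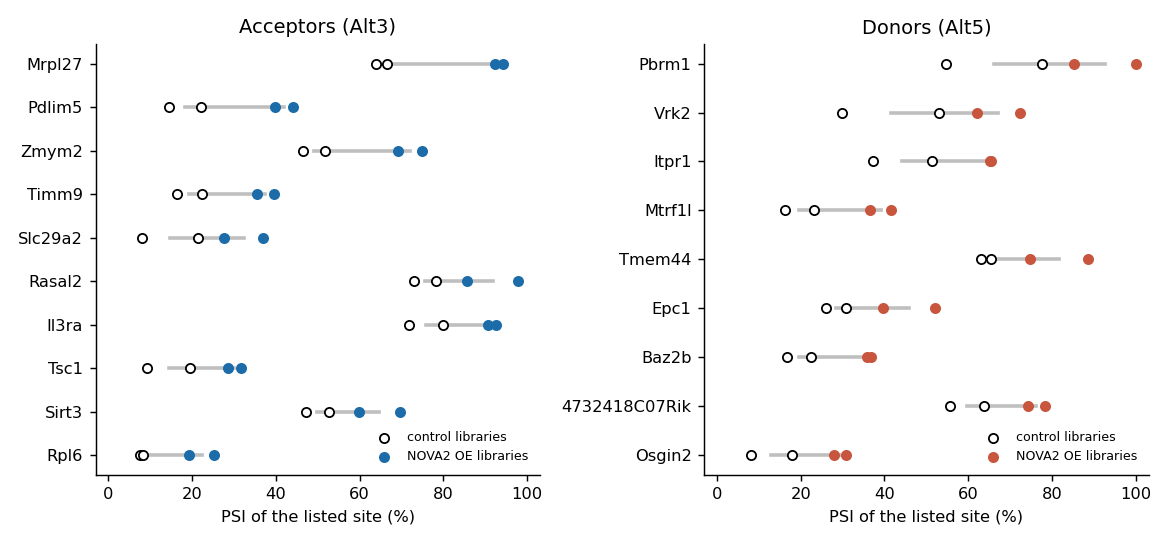
PSI (%) in each library of 10 acceptors and 9 donors from the 10 of each class with the largest dPSI among called sites scored LOW or better. Open points are the 2 control libraries, filled points the 2 NOVA2 OE libraries, and grey bars join the group means. Control libraries of Pbrm1 and Vrk2 lie over 20 points apart, those of Mrpl27 and Rpl6 less than 3.

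The deeply read sites described next changed by about 10 points or less, and the spread between their libraries differed from site to site. At Ociad1, the middle of 3 donors adds 45 nt and was used in 4.55 and 3.49% of 1195 and 1285 reads in control. With NOVA2 OE it was used in 10.2 and 10.9% of 1655 and 1614 reads (dPSI 6.50, SD 0.75 and 0.495, n = 2 each, adjusted Fisher's exact p = 1.45e-19). For the first control library the 95% Wilson interval was 3.48 to 5.85%, and for the first NOVA2 OE library it was 8.79 to 11.7%, which covers counting error only. The proximal acceptor of Neo1, the receptor neogenin, was used in 6.22 and 3.77% against 11.3 and 11.3% (adjusted Fisher's exact p = 5.33e-07). The longer exon of Ubap2l went from 21.7 and 25.9% to 31.0 and 31.0% (adjusted Fisher's exact p = 5.77e-05). At Npm1, the nucleolar protein nucleophosmin, 6 nt were gained in 8.85 and 11.9% of control reads and 22.4 and 18.4% of NOVA2 OE reads. Eri3 gained 7.90 points at acceptors 6 nt apart.

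Pairs of acceptors 3 nt apart, in which mostly 2 AG follow each other within a few bases, made up 36 of the 92 Alt3 events with 2 competing sites. The Sorbs2 pair, with TT at its proximal acceptor, is counted among them. Only 1 of the 62 Alt5 pairs had that distance. In 25 of the 36 the longer exon, from the proximal acceptor, was the one used more with NOVA2 OE, and in 11 the shorter one. Among the 55 pairs over 3 nt apart the longer exon was used more in 24. The median PSI of the 36 sites was 46.2 and 47.3% in control and 63.4 and 57.1% with NOVA2 OE, and their dPSI ran from 5.72 to 30.03 points. The largest change among the 215 sites was of this kind, Gpcpd1 in the 5′ UTR, whose shorter exon was used in 64.7 and 54.6% against 100% and 79.3%, with 17 reads in the shallowest library.

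Of the 36 pairs, 11 were called, and the most deeply read of all 36 shifted by less than 10 points. Cnot10, a subunit of the CCR4-NOT deadenylase, used the proximal AG in 70.8 and 69.5% of reads in control and 77.9 and 79.3% with NOVA2 OE (adjusted Fisher's exact p = 0.00529). At Tle3, a Groucho corepressor, the distal AG went from 13.4 and 14.5% to 20.4 and 20.9% (adjusted Fisher's exact p = 0.0345). Otud5, a deubiquitinase, used the proximal AG in 17.7 and 18.4% of control reads and 23.4 and 24.6% of NOVA2 OE reads, and Pxk in 42.2 and 40.6% against 48.0 and 48.1%. In Sema4c the values were 45.5 and 44.9% against 51 and 50.9%. These last 3 did not pass (adjusted Fisher's exact p = 0.0638 for Otud5, 0.125 for Pxk and 0.157 for Sema4c).

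**Figure D4:**
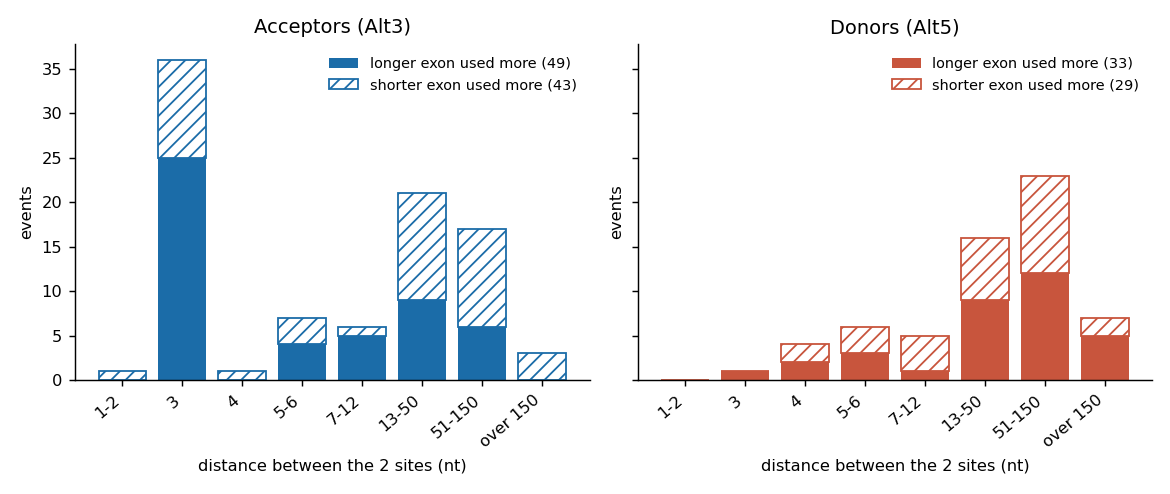
Number of events with 2 competing sites by the distance between the sites (nt), for 92 acceptor pairs and 62 donor pairs. Filled bars are events in which the longer exon was used more with NOVA2 OE and hatched bars those in which the shorter exon was. The 3 nt class holds 36 acceptor pairs and 1 donor pair.

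Many acceptor pairs lay close together, and their share of frame-keeping distances rested on the 3 nt pairs. The median distance was 9 nt (1 to 327) for acceptor pairs and 43.5 nt (3 to 492) for donor pairs. It was a multiple of 3 in 60 of 92 acceptor pairs (65.2%, 95% Wilson interval 55.1 to 74.2%) and 30 of 62 donor pairs (48.4%, 36.4 to 60.6%). The intervals overlap. Without the 3 nt pairs the shares were 42.9% for acceptors and 47.5% for donors, so no order between the classes is drawn. In coding sequence they were 68.4% and 51%. By the annotation, 99 acceptors lay in coding sequence, 18 in 5′ UTRs and 2 in 3′ UTRs, and 59 donors lay in coding sequence, 35 in 5′ UTRs and 2 outside annotated exons. Of the donors in 5′ UTRs 9 of 35 were called, and of those in coding sequence 31 of 59. A dPSI of at least 10 points was reached by 26 of the 35 (median 12.65) and 31 of the 59 (median 10.45). Reads also differed: in donor pairs the library with the fewest had a median of 25 reads outside coding sequence and 46 within it.

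Events with more than 2 competing sites were 27 of 119 for Alt3 and 34 of 96 for Alt5, up to 5 acceptors and 8 donors. Over all events the listed acceptor gave the longest exon in 63, the shortest in 50 and a middle one in 6. For donors the counts were 42, 42 and 12. Among the 9 donors listed from 4 or more sites, 6 gave the shortest exon, and their median control PSI was 13.7% against 42.8% in pairs. Among acceptors the longest exon made up 43.9% of sites with a dPSI of at least 10 points and 62.3% of sites scored OK or better in all libraries, against 52.9% of all. No order between the forms is therefore drawn for acceptors.

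Site strength was scored against the base composition of annotated mouse splice sites, from 20 bases before to 3 after an acceptor and from 3 before to 6 after a donor. The listed site scored higher than its competitor in 36 of 92 acceptor pairs and 31 of 62 donor pairs. The listed donor was the stronger one in 22 of 33 pairs where the longer exon was used more, and in 9 of 29 where the shorter exon was. For acceptors the counts were 20 of 49 and 16 of 43. The counts by form were not tested against each other. The stronger site of a pair was the more used one in control in 65 of 92 acceptor pairs and 39 of 62 donor pairs.

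Pdlim5, a PDZ-LIM protein of the actin cytoskeleton, had the widest distance among the acceptor pairs. Its 2 acceptors lie 327 nt apart at chr3:141975178-141975505 (mm9, minus strand), a whole number of codons. The shorter exon was used in 14.6 and 22.1% of 110 and 104 reads in control and in 39.8 and 44.1% of 191 and 161 reads with NOVA2 OE (dPSI 23.6, SD 5.35 and 3.05, n = 2 each, adjusted Fisher's exact p = 5.2e-08). Both NOVA2 OE libraries lay above both control libraries. The proximal acceptor scored 11.3 and the distal one 1.12. The stretch that the shorter exon leaves out held 21 YCAY motifs, and capitals mark those in its last 300 bases. The count goes with the length. The density of 6.42 per 100 nt was below that of Acvr2b (8.33, over 24 nt) and close to those of Abca7 (6.38) and Usp34 (6.15). At Acvr2b and Usp34 the shorter exon was used more with NOVA2 OE, and at Abca7 the longer one.
Pdlim5 between the acceptors, chr3:141975179-141975478, minus strand: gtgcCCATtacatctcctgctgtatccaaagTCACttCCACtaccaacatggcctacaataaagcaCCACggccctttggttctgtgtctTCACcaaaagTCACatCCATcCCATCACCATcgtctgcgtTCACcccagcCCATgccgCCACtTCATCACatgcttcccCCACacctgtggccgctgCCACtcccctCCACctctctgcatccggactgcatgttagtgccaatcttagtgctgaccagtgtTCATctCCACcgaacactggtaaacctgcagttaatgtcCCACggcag

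Other stretches between acceptors are shown for comparison, the first from Usp34 and Adamts7, next to Pdlim5 in YCAY density among acceptor pairs over 50 nt apart with the shorter exon used more, and the others from the widest changes of that form. Adamts7 did not pass the test (adjusted Fisher's exact p = 0.107).
Usp34, 65 nt, chr11:23312150-23312214, plus strand: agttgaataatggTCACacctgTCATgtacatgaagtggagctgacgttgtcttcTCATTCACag
Adamts7, 76 nt, chr9:90075463-90075538, plus strand: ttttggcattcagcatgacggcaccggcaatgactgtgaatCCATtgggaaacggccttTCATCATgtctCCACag
Mrpl27, 79 nt, chr11:94517722-94517800, plus strand: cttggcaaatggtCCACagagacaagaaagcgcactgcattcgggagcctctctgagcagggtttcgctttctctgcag
Pcdh9, 126 nt, chr14:93725974-93726099, minus strand: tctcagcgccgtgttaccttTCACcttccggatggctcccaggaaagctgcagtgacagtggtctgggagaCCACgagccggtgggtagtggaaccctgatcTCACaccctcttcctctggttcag

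YCAY was counted on the strand of the transcript only, overlaps included, as TCAT and also as TCAC, then CCAT and also CCAC. As a motif of the same form YGAY was counted, which is TGAT and also TGAC, then CGAT and also CGAC. Between acceptors at least 20 nt apart there were 3.03 ± 2.30 YCAY per 100 nt (SD over 22 events) where the shorter exon was used more, and 1.78 ± 1.92 (13 events) where the longer one was. Between donors the densities were 1.52 ± 1.45 (15 events) and 1.49 ± 1.37 (24 events). YGAY gave 1.06 and 1.47 between the same acceptors. Without Pdlim5 the first density was 2.86. Among events with a dPSI of at least 10 points it was 3.47 (14 events) and that of the longer exons was 3.26 (5 events), so the means were close there. The means were 3.16 (9 events) and 2.43 (6 events) among called sites, and 2.76 (14 events) and 0.853 (6 events) at distances of at least 50 nt. Over the summed length they were 3.18 and 1.66. The densities are a description with no test.

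In the 200 nt before the first acceptor the density was 1.64 (shorter exon used more) and 1.70 (longer), and in the 200 nt after the last it was 1.59 and 1.78. Around all 197428 annotated mouse acceptors it was 1.70 before and 1.68 after, and 95.5% and 95.4% of those windows held at least 1 YCAY. Before the donors it was 1.47 and 1.74 and after them 1.31 and 1.76, against 1.69 and 1.56 at 200416 annotated donors, of whose windows 95.2% and 93.2% held a motif. A motif of this length is therefore found beside nearly any splice site.

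**Figure D5:**
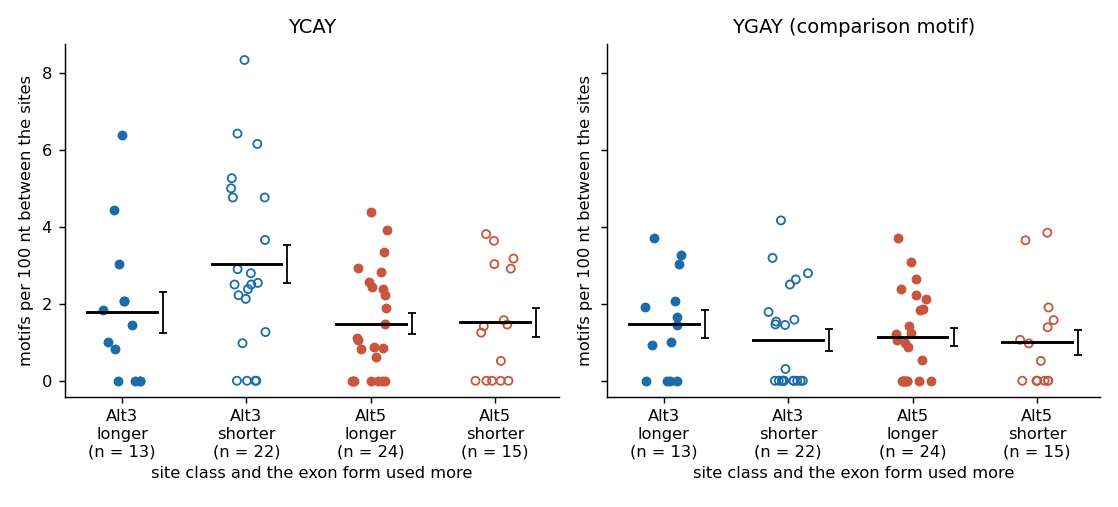
YCAY (left) and YGAY (right) motifs per 100 nt between the 2 competing sites, 1 point per event with sites at least 20 nt apart, by site class and by the exon form used more with NOVA2 OE. Lines are means and bars the standard error over events. Acceptor events with the shorter exon used more have the highest mean YCAY density, 3.03, with single events from 0 to 8.33.

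A separate readout was the use of the whole exon that holds the competing sites, from the reads that skip it. It is a different ratio from the PSI of a site, and its lowest value in the table was 26.1%. Skipping reads were present in 124 of the 215 events. Of these, 0 rose and 2 fell (two-sided Fisher's exact test, adjusted over the 124), a share of 1.61%. At an unadjusted Fisher's exact p under 0.05 there were 0 higher and 8 lower, and limma called 0 higher and 2 lower. Sema6d, a semaphorin of axon and vessel guidance, had exon use of 83.6 and 84.8% in control and 69.3 and 70.9% with NOVA2 OE (adjusted Fisher's exact p = 0.000336). In Mocs1, which acts in molybdenum cofactor synthesis, it was 93.5 and 93.8% against 77.9 and 83.0% (adjusted Fisher's exact p = 0.000195). In both exons the control and NOVA2 OE libraries did not overlap, so these donors sat in exons that were skipped more with NOVA2 OE. Their own site use changed by 8.81 and 8.58 points and did not pass (adjusted Fisher's exact p = 0.0574 for Sema6d and 0.0681 for Mocs1). Pdlim5 kept its exon at 97.0 to 99.0% in all 4 libraries.

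More than 1 site was listed in 8 genes, of which 7 are described. In Timm9, a chaperone of the mitochondrial intermembrane space, both ends of 1 intron in the 5′ UTR were listed. The distal acceptor was used in 16.3 and 22.4% against 39.5 and 35.6% of reads, and the proximal donor in 12.5 and 17.7% against 32.5 and 29.1%. From raw reads the dPSI was 11.8 points in place of 18.2 at the acceptor and 7.26 in place of 15.7 at the donor, and both still passed (adjusted Fisher's exact p = 0.0238 and 0.00791). Both pairs lie 5 nt apart, and the 5 nt added by the proximal donor differ from the 5 nt added by the proximal acceptor at 1 base, so the 2 messages have the same length and are told apart by that base. In Sorbs2, Plekha5, Wdfy3, Phkg2 and Nin the listed sites belonged to different exons. In Thnsl1 sites 2/3 and 3/3 of the same 3 donors were listed, at 12.4 and 13.1 points, with 15 reads in the shallowest library.

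Genes were grouped by role, from symbol prefixes and from single genes added by name with earlier results of these data known. The median dPSI of all 215 sites was 11.1 points, and 91 of them were called. Every list had a higher median than that. A list's values describe its own sites only, since its genes were chosen with results known. Of 10 sites in ribosome and translation genes 5 were called (median 12.9 points). The shortest exon was the listed form in 9 and a middle one in Rps3a. Over all sites the shortest exon was listed in 50 of 119 acceptors and 42 of 96 donors. Besides Mrpl27 and Rpl6 they include Mtrf1l, a mitochondrial release factor, whose distal donor was used in 23.1 and 16.2% against 36.5 and 41.7%. Rpsa, a small subunit protein, went from 3.85 and 5.88% to 14.7 and 29.0% with 17 reads in the shallowest library. In RNA processing genes 5 of 8 sites were called (median 12.5 points). At Unk, an RNA-binding repressor of translation, the middle donor rose from 67.9 and 68.5% to 84.6 and 82.1%. Gigyf1 was called on corrected reads, with 1 and 2 raw reads in control and 6 and 6 with NOVA2 OE, and not on raw reads (adjusted Fisher's exact p = 0.168). Helz had 17.9 points and did not pass (adjusted Fisher's exact p = 0.0632).

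In chromatin regulators 10 of 17 sites were called (median 12.2 points), among them Pbrm1, Epc1, Baz2b and Ncor1. Ubn2, of the histone H3.3 chaperone complex, had 19.6 points on 17 reads and did not pass (adjusted Fisher's exact p = 0.0711). In zinc finger genes 3 of 13 were called (median 11.8 points), with Zmym2 the widest, while Zfp213 and Zkscan6 had 20.3 and 18.0 points and did not pass (adjusted Fisher's exact p = 0.125 and 0.156). Sites in cytoskeleton, adhesion and polarity genes were called in 8 of 14 (median 13.9 points). Pcdh9, a protocadherin, shifted to its shorter exon, from 38.5 and 45.5% to 66.7 and 74.3%. Cep152, a centriole duplication protein, went from 55.0 and 31.8% to 68.3 and 69.6%. Neither was among the 10 leading acceptors above, which had to be called and scored LOW or better in all libraries. Of the 14 sites in this list 7 were scored VLOW in a library.

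In membrane traffic and autophagy 5 of 12 sites were called (median 12.4 points), and the longest exon was the listed form in 2. Over all sites it was listed in 63 of 119 acceptors and 42 of 96 donors. Synj1, a phosphoinositide phosphatase of endocytosis, used its distal acceptor in 4.47 and 0% of reads in control and 17.4 and 15% with NOVA2 OE. Vps24, an ESCRT-III subunit, and Plekhm3 had 17.3 and 15.9 points and did not pass (adjusted Fisher's exact p = 0.071 and 0.151). In receptors and signalling 8 of 18 were called (median 14.1 points), and 9 of the 18 sites were scored VLOW in a library. Mapk8ip1, a scaffold of JNK signalling, went from 80.0 and 57.9% to 90.6 and 92.6%, and Syde2, a RhoGAP, with 22.1 points did not pass (adjusted Fisher's exact p = 0.0655). In mitochondrial genes 6 of 8 were called (median 17.0 points), including Mrpl27, Mtrf1l and both Timm9 sites, whose changes were smaller on raw reads. Mterfd3, of the mitochondrial transcription termination factor family, was listed at 0 and 3.85% against 10.0 and 46.7%, and its 2 NOVA2 OE libraries were far apart.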

How the data were processed

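RNA-seq of 2 control and 2 NOVA2 OE libraries of moEC was used. Members and lists were chosen with earlier results of these data known. Sequencing was on a HiSeq2500, and splicing was quantified by the authors with vast-tools (mm9). In the deposited table each library has a PSI in percent beside a string that holds its coverage score, raw reads and reads corrected for mappability, and the authors kept events with over 5 points between all libraries of both groups. Their dPSI column was not used, and 12 further columns of per-sample values, of a NOVA2 depletion experiment and its controls, were not used here.

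PSI was averaged per group (n = 2) and subtracted. Fisher's exact tests (scipy 1.17.1, Python 3.11.15) used corrected reads rounded to whole numbers and Benjamini-Hochberg adjustment over 1075 events, with a threshold of 0.05. limma 3.58.1 (R 4.3.3) on log2 odds with a pseudocount of 0.5 was an alternative. Fisher's exact test, the Cochran-Mantel-Haenszel test and limma recovered most changes in simulated data, and quasi-binomial regression recovered hardly any. The simulated libraries of a group differed by counting error only, and the listing rule was not applied to them. They therefore cannot show how often a test calls unchanged sites in this table, or how often it finds changes of the listed sizes. Sites were placed on NCBIM37 (mm9) with GENCODE annotation. Sites were matched by position, and gene symbols are those of the table. Intervals are 95% Wilson intervals, and floors are 3 reads. Both cover counting error only, as reads have no molecular identifiers.

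Sites were named by rule: the 10 acceptors and 10 donors with the largest dPSI among called sites scored LOW or better, Pdlim5, the 5 of each class with the most reads, the 5 deepest acceptor pairs 3 nt apart, events past the exon use test, the 3 widest of each role list, genes with several sites, the 5 shallowest sites, and the 3 on either side of 10 points. Gpcpd1, Usp34, Adamts7, Acvr2b and Abca7 and the other sequences shown were chosen after their values were seen. A few sites that the rule names are not reported here.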

Additional observations from a re-analysis of the deposited data

How the results depend on the processing

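Of 159 alternative values of the counts, shares and densities, 128 stayed within 1.5 times the count, the Wilson interval or the SD. The SD over events was wide for the densities, so that even YGAY counted in place of YCAY stayed within it. The densities therefore add little to that number as a check. Of 426 alternative dPSI values of 71 named sites, 10 moved by more than the replicate spread and 0 changed sign. Most of these alternatives left out 1 library. By the listing and the size of the replicate spread, such values could neither change sign nor move, so they are no check. The count with a dPSI of at least 10 points (66 acceptors, 59 donors) was 29 and 24 at 15 points, 32 and 39 among sites scored LOW or better, and 21 and 26 among those scored OK or better. The count of Fisher's exact calls (51 acceptors, 40 donors) was 101 and 79 with limma, 99 and 81 with a pseudocount of 1, 1 and 2 with limma variances kept at or above sampling variance, 22 and 22 with quasi-binomial regression, and 4 and 8 with Bonferroni adjustment. With 1 library left out it was 18 to 25 acceptors and 15 to 26 donors. The range from 1 to 101 acceptors shows that the count depends on how the spread of 2 libraries is estimated. As a replicate block, limma called 87 acceptors and 73 donors and the Cochran-Mantel-Haenszel test 63 and 45. Libraries of the same number did not deviate together (correlation 0.00386 over all events). With so few reads per event counting error can hide a shared deviation, so whether the numbers pair the libraries stays unknown. The share of acceptors with the longest exon (52.9%) was 43.9% at 10 points or more and 62.3% at OK or better, and that with a middle exon is 0% by construction when only pairs are counted, as for donors. The share of acceptor distances that are multiples of 3 (65.2%) was 42.9% without 3 nt pairs. Counts for exon use were 0 higher and 2 lower in all 9 alternatives. Depth limits the shallow sites, where 3 of 15 reads is a PSI of 20%. Alternatives that left out Pdlim5, summed the motifs or used a 50 nt minimum were chosen after seeing the data.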

Other observations

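The 3 sites just above a dPSI of 10 points were Npm1 (10.0), Pkd1 (10.1) and 4933411K20Rik (10.2), and those just below include Calml4 (9.92) and Ccdc142 (9.78). At 4933411K20Rik the dPSI was 18.4 points from raw reads, so the mappability correction lowered it, whereas at Epc1, Tmem44, Atp2b1 and Atp6v1e1 it raised it. The factor between corrected and raw reads was not the same in every library. At Pbrm1 the listed donor had 28 raw and 27.9 corrected reads in control replicate 1, and 43 raw and 26.3 corrected reads in control replicate 2. Unc50, with acceptors 4 nt apart, had 1 and 3 raw reads at its distal acceptor in control and 6 and 11 with NOVA2 OE. These became 1 and 2.99 corrected reads in control and 31.8 and 25.6 with NOVA2 OE. Its adjusted Fisher's exact p was 3.45e-09 on corrected reads and 0.0687 on raw reads. Unc50 was chosen after its values were seen.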
